A study of Mus musculus with 8 samples.

Results

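Heat shock proteins and their DnaJ partners were followed in brown adipose tissue (BAT) of 8 obese mice. The genes were chosen by name, as the protein-coding genes of the GENCODE M21 annotation of GRCm38 whose symbols belong to the Hspa, Hspb, Hspd1, Hspe1, Hsph1, Hsp90, Dnaja, Dnajb or Dnajc families, leaving out Dnajc19. The rule gave 71 genes among 44674 in the tables. Of these, 70 had a row, 67 had a count in any mouse and 63 passed the filter on low counts, beside 14489 of all genes. Hspa14 was not analysed here, and Dnajb7, Dnajb8, Dnajc5b, Dnajc5g, Dnajc6, Hspb3 and Hspb9 were too low to be tested.

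Heat shock proteins are molecular chaperones, which bind unfolded proteins and help them fold, be transported or be degraded. Hsp70 proteins (Hspa) work in cycles of ATP hydrolysis that DnaJ proteins, also called J proteins or Hsp40, start. Hsp90 acts on late folding steps of kinases and steroid receptors, and small heat shock proteins (most Hspb genes) hold unfolded proteins without ATP. Hspb11 was grouped with these by its symbol only. Each compartment has its own set: Hspa8, Hspa1a and Hspa1b with Hsp90aa1 and Hsp90ab1 in the cytosol, Hspa5 (BiP) and Hsp90b1 (Grp94) in the endoplasmic reticulum (ER), and Hspa9 (mortalin) with the Hspd1-Hspe1 chaperonin (Hsp60 and Hsp10) in the mitochondrial matrix. The cytosolic set is known for its induction by heat shock factors, the ER set for the unfolded protein response, and brown adipocytes for their dense mitochondria, whose proteins are largely imported and folded there.

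The mice were males fed a high-fat diet (HFD) from 4 to 18 weeks of age, and BAT was taken when a hyperinsulinemic-euglycemic clamp ended, so every sample had been exposed to insulin infusion and the clamp procedure. Ox1RΔSERT mice (n = 4) carried loxP-flanked alleles of the orexin receptor 1 gene and a Sert-Cre (Slc6a4-Cre) transgene, which deletes the receptor in cells expressing the serotonin transporter, chiefly serotonergic neurons of the raphe, with Cre activity also reported in some cortical and thalamic cells. Control mice (n = 4) were Ox1R fl/fl littermates without the Cre, so both groups carried the floxed alleles and only Ox1RΔSERT mice the transgene. The deletion lies in neurons outside the tissue sequenced, and the receptor gene Hcrtr1 had 0 to 5 counts per mouse, so BAT RNA could not check the genotype labels. Libraries held 35852667 to 50063257 estimated counts, of which mitochondrially encoded genes took 40.0 to 46.8% in controls and 33.6 to 44.6% in Ox1RΔSERT mice. Ox1RΔSERT mice 11601 and 11708 stood apart from the other 6 on a first principal component with 52.2% of the variance. In these 2 mice the summed macrophage and fibroblast markers were high and the summed brown adipocyte markers low. The macrophage sum was 894 and 679 against 109.6 to 256 in the other 6. The brown adipocyte sum was 9309 and 8660 against 12083 to 14262, of which Fabp4 alone made up 4882 and 4271 in the 2 mice. Of the 10 brown adipocyte markers, 5 were lowest in these 2 mice (Ucp1, Cidea, Plin1, Fabp4 and Adipoq). Of these, Plin1, Fabp4 and Adipoq are general adipocyte markers, not particular to brown fat. Dio2, Ppargc1a, Adrb3, Zic1 and Lhx8 did not have this order. Lhx8 was not low there, at 4.10 and 4.50 against 1.71 to 4.16 in the other 6. Ucp1 was abundant in all 8 mice, at 2513 to 4894.5, whereas Zic1 (4.11 to 14.1) and Lhx8 (1.71 to 4.50) were low in all of them.

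Levels of different genes were compared in TPM, which divides by transcript length. Hspa8, the constitutive cytosolic Hsp70, was highest at 903 TPM (mean of 8 mice). It was followed at some distance by Hsp90ab1 (380.1), Hspa9 (372), Hspe1 (366), Hspd1 (351) and Hspb1 (324), which did not differ from their neighbours in this order beyond the spread between mice. Below these came Hsp90aa1 at 260.1, Dnajc15 at 212, Dnaja1 at 151 and Hspa5 at 121 TPM. Thus 3 of the 5 highest members were mitochondrial. Inducible Hspa1b and Hspa1a were low and uneven, at 30.1 ± 31.2 and 14.5 ± 14.9 TPM in controls (SD, n = 4).

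The plot of all tested members by mouse groups them by compartment: mitochondrial genes, cytosolic genes and ER genes differed in some of the mice that were highest or lowest and shared others. All values below, unless given as TPM, are normalized values, that is CPM after TMM scaling, which corrects for library size and composition.

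**Figure D1:**
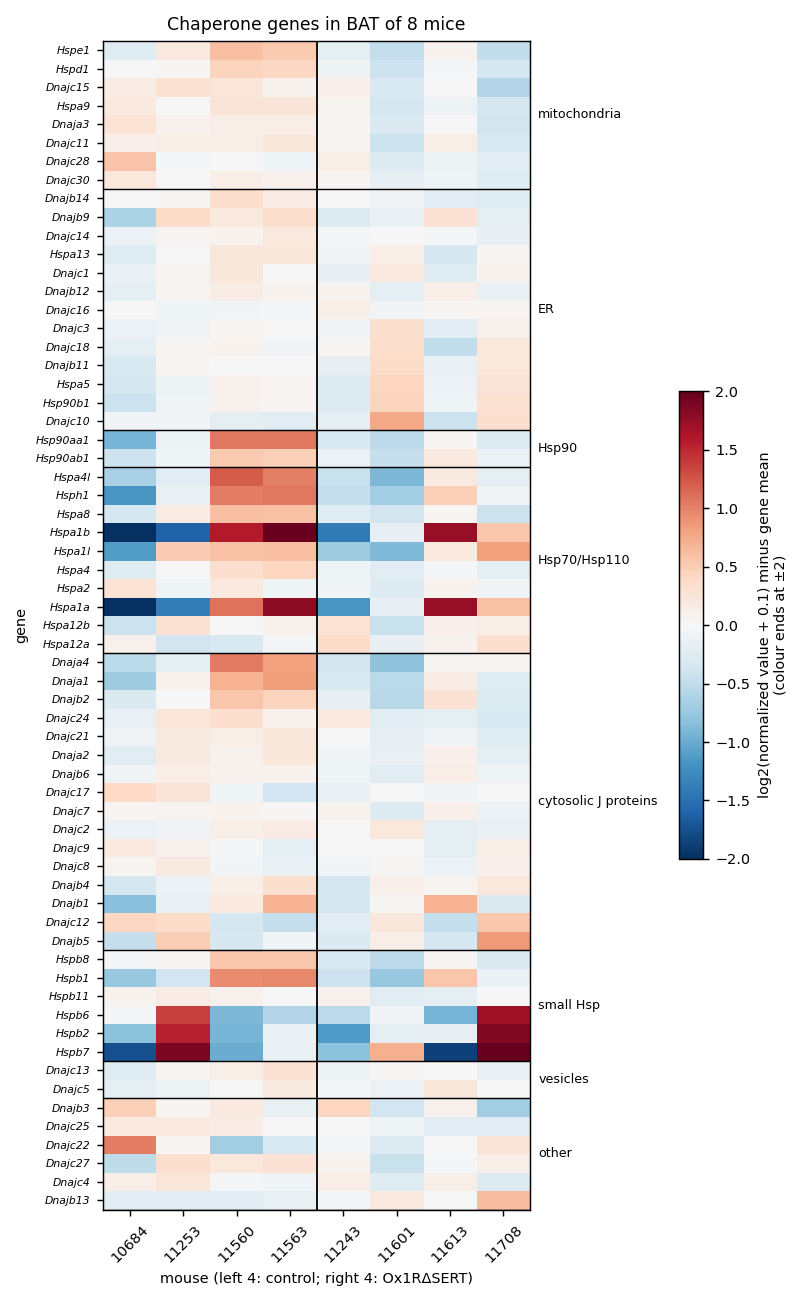
Normalized values of the 63 tested chaperone genes in 8 mice, as log2(value + 0.1) minus the mean of each gene, grouped by compartment; the left 4 columns are control mice and the right 4 Ox1RΔSERT mice. The mitochondrial block is lowest in mice 11601 and 11708, whereas many cytosolic genes are highest in control mice 11560 and 11563 and Ox1RΔSERT mouse 11613.

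No chaperone gene differed between the genotypes at an adjusted p under 0.05. With edgeR's quasi-likelihood test 0 of 14489 genes (0.0%) passed after Benjamini-Hochberg adjustment, and the lowest adjusted p of all genes was 0.316. DESeq2, run as an alternative, called 265 of 15119 genes (1.75%) but 0 of the 63 members, where the lowest adjusted p was 0.0981 for Hspb8. At an unadjusted p under 0.05 in edgeR, 0 members were higher in Ox1RΔSERT mice, where 10.2% of all genes were, and 10 members (15.9%) were lower, against 4.96% of all genes. These 10 were Hspb8, Hspd1, Dnajc25, Hspe1, Hspa9, Dnaja3, Dnajb14, Dnajc21, Dnajc15 and Hspa8. The median log2 fold change was -0.15 over the members and 0.00 over all genes tested, and 44 members lay below 0 and 19 above. In normalized values groups did not overlap for 2 lower members, Hspd1 and Dnaja3 (3.17% of members, 2.81% of genes). The same held for 1 higher member, Dnajb13 (1.59% of members, 2.69% of genes), so non-overlap was about as frequent as elsewhere. In TPM the groups overlapped for Hspd1, Dnaja3 and Dnajb13.

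The count of 10 rested on few mice. Without control mouse 11563 it was 2 (3.17% of members), about the 2.72% of all genes lower in that fit. It was 3 without control mouse 11560 or Ox1RΔSERT mouse 11708 and 4 without mouse 11601, where 2.02%, 2.13% and 2.51% of all genes were lower. It was 8 without control mouse 11253 (4.22% of all genes), 12 without Ox1RΔSERT mouse 11243 or 11613 (8.50% and 5.97%) and 18 without control mouse 10684 (6.54%). Without both mice 11601 and 11708 it was 0 of 63, against 1.20% of all genes. With library size scaling and in TPM the count of lower members was 0 too, in settings where the median of all genes itself was 0.22 and 0.23 or 0.32 on the log2 scale and 0.607%, 0.242% and 0.228% of all genes were lower. Relative to that median the members stayed lower, at -0.15, -0.06 and -0.11. In bulk tissue such as this, fewer cells of a type and less RNA per cell cannot be told apart.

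**Figure D2:**
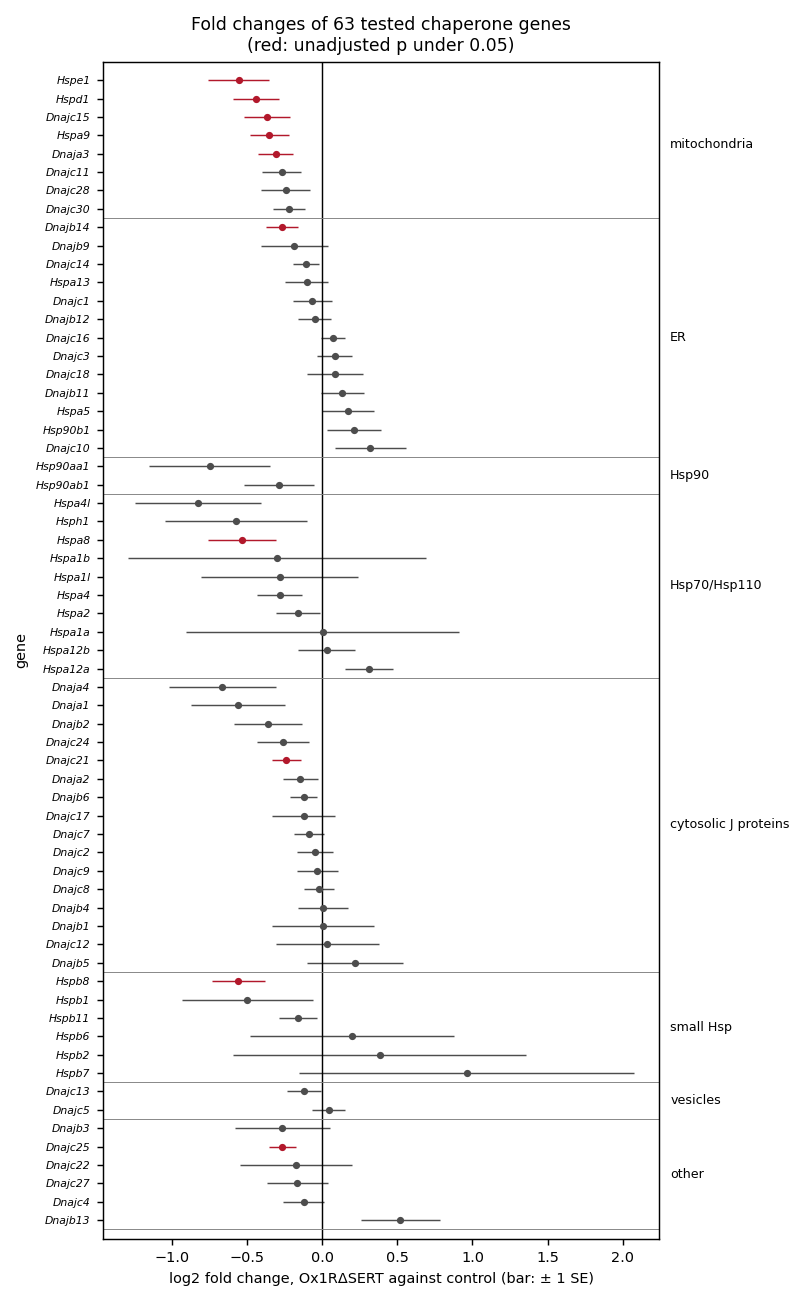
Log2 fold change (Ox1RΔSERT against control, edgeR) of the 63 tested members with 1 SE either side, by compartment; red marks an unadjusted p under 0.05. All 8 mitochondrial genes lie left of 0, the 13 ER genes lie on both sides, and Hspb7, Hspa1b and Hspb2 have the broadest errors.

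Mitochondrial chaperones were the group with the most members at a low p. All 8 tested genes (Hspa9, Hspd1, Hspe1, Dnaja3, Dnajc11, Dnajc15, Dnajc28 and Dnajc30) had lower means in Ox1RΔSERT mice, with a median log2 fold change of -0.33. At an unadjusted p under 0.05, 5 of 8 were lower, against 4.96% of all genes. In TPM only 4 of the 8 lay below 0, yet all 8 lay below the median of all genes there and with library size scaling, at a median of -0.22 to -0.35 relative to it. None passed the adjusted test.

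Hspd1 forms the barrel of the mitochondrial chaperonin. Its value was 914, 939, 1256 and 1230.0 in the controls, given throughout in the order of mice 10684, 11253, 11560 and 11563. The Ox1RΔSERT mice, always in the order 11243, 11601, 11613 and 11708, had 862, 695, 906 and 733. The groups did not overlap, but the highest Ox1RΔSERT mouse (11613) and the lowest control (10684) nearly met. In TPM they overlapped, at 275.9 to 427.8 in controls and 279.4 to 403.2 in Ox1RΔSERT mice. The log2 fold change was -0.44 (SE 0.15, adjusted p = 0.316, edgeR's quasi-likelihood test). Hspe1, the lid of the same chaperonin, was at 154, 208, 275 and 262 in controls and 160.0, 129.9, 192 and 129 in Ox1RΔSERT mice. Here the groups overlapped, as control mouse 10684 sat below 2 of the Ox1RΔSERT mice, and the log2 fold change was -0.56 (SE 0.20, adjusted p = 0.316). Both subunits were highest in control mice 11560 and 11563. In TPM the ratio of Hspe1 to Hspd1 was 1.10 ± 0.147 in controls and 0.981 ± 0.0358 in Ox1RΔSERT mice (SD, n = 4), and the 2 ranges overlapped.

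Hspa9, the matrix Hsp70 that pulls in and folds imported proteins, was at 1548, 1349.8, 1603 and 1608 in controls and 1396, 1072, 1252 and 1070.1 in Ox1RΔSERT mice. Mouse 11243 reached the range of the controls and mice 11601 and 11708 were lowest, with a log2 fold change of -0.35 (SE 0.13, adjusted p = 0.316). Dnaja3 (Tid1), a J protein partner of Hspa9, had 285, 251, 258 and 258 in controls and 239, 192, 236 and 183 in Ox1RΔSERT mice. All 4 Ox1RΔSERT values lay under the lowest control, and the log2 fold change was -0.31 (SE 0.12, adjusted p = 0.316). In TPM the groups overlapped, at 70.6 to 91.9 in controls and 72.8 to 92.7 in Ox1RΔSERT mice. Dnajc15, a J protein of the inner membrane near the import motor, was at 136, 151, 145 and 128 against 131, 99.2, 123 and 81.0. Mouse 11243 fell among the controls, and mouse 11613 was nearer to them than mice 11601 and 11708 were (log2 fold change -0.37, SE 0.15, adjusted p = 0.323). The other 3 genes, Dnajc11, Dnajc28 and Dnajc30, had log2 fold changes between -0.27 and -0.22.

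Mice 11601 and 11708 were the lowest 2 of the 8 for 8 of 8 mitochondrial members, a pattern found after looking at the values and present in 15.3% of all genes. These are also the 2 mice with the high macrophage and fibroblast and low brown adipocyte marker sums. All 8 of 8 macrophage markers and 5 of 5 fibroblast markers were highest in them. Of the 10 brown adipocyte markers 5 were lowest, among them the general adipocyte markers Plin1, Fabp4 and Adipoq. Without both mice, the mitochondrial median was -0.14, 0 of 8 were at an unadjusted p under 0.05, and all 8 still lay below 0. The 5 of 8 also rested on single mice. The count was 0 without control mouse 11563 and 1 without control mouse 11560 or mouse 11601. It was 3 without control mouse 10684, 4 without control mouse 11253, 6 without mouse 11613 and 7 without mouse 11243. Without mouse 11708 all tested members of every compartment together had 3. Of all genes, 2.02 to 8.50% were lower in these fits. With library size scaling and in TPM the count was 0, against 0.228 to 0.607% of all genes. The part of the marker differences in the mitochondrial values was not tested. The partner list of 10 mitochondrial co-factors and proteases (such as Trap1, Grpel1, Lonp1 and Clpp) had a median of -0.13, with 10 of 10 below 0 and 0 at an unadjusted p under 0.05. Mice 11601 and 11708 were also the lowest 2 for 7 of these 10 genes. The same held for 9 of 23 cytosolic co-chaperones and 0 of 13 ER members.

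**Figure D3:**
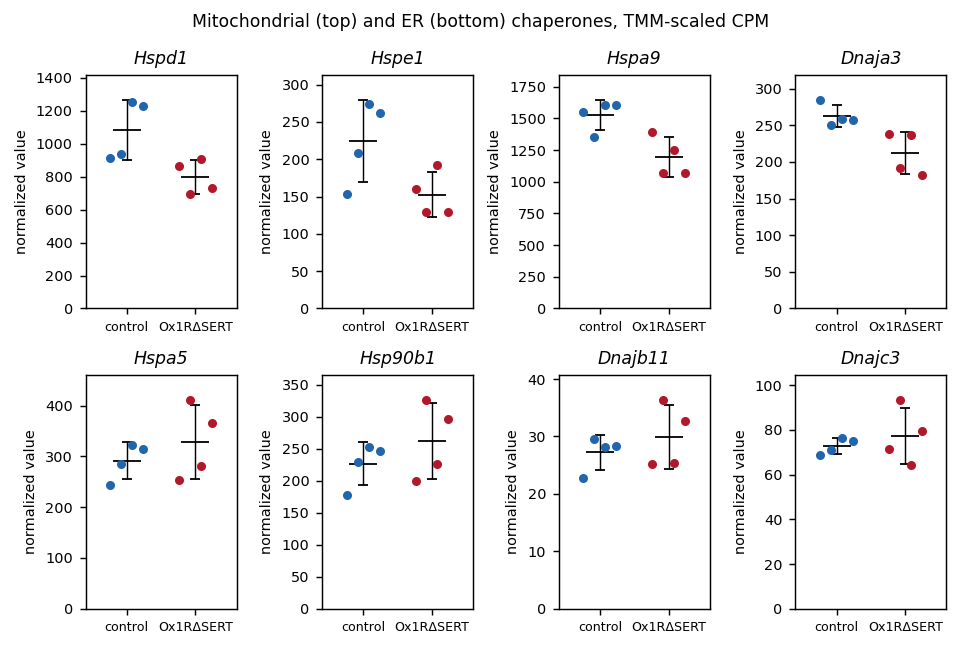
Normalized values (TMM-scaled CPM, axis from 0) of 4 mitochondrial genes (top) and 4 ER genes (bottom), 1 point per mouse with the group mean and SD (n = 4). Hspd1 and Dnaja3 do not overlap between groups on this scale, though they do in TPM. The spread of all 4 ER genes in Ox1RΔSERT mice reaches above and into the control range.

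Several of these genes share near-identical sequence with other loci, which Salmon has to divide between them. For Hspd1, 50.1% of the 31-base words of its transcripts also occurred in other genes, mainly processed pseudogenes, and for Hspe1 24.8%. Hspd1 and Hspe1 are neighbours transcribed in opposite directions, and their annotated exons share 112 bases on opposite strands. Dnajc30 shares 436 exonic bases with Bud23 on the opposite strand. The kit preserves strand, but the strand setting of the quantification was not given in the sources used here.

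The Hspd1-Hspe1 region also carried a recognisable regulatory sequence, shown because both genes varied together between mice. RefSeq promoter windows (GRCm38.p6, 250 bases before to 50 after a transcription start) were matched by symbol for 57 of the 71 members and searched on both strands for a heat shock element, the sequence that heat shock factors bind, in 3 inverted units: GAANNTTCNNGAA or TTCNNGAANNTTC. It was present in 0.603% of 32841 windows and in 6 of 74 windows of members, which belong to 4 genes, Hspd1, Hspe1, Hsph1 and Dnajb6. Members without a window, among them Hspa8, Hsp90aa1, Hsp90ab1 and Hspa9, were not searched. The matches are given with 5 bases either side, 5′ to 3′ on the strand of the named gene, with the match in capitals.
Hspe1, chr1:55088054-55088081, plus strand: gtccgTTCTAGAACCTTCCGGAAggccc
Hsph1, chr5:149636283-149636305, minus strand: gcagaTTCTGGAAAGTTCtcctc
Dnajb6, chr5:29735847-29735869, plus strand: tccgaGAATCTTCCGGAAcgcta
The first run holds 2 overlapping matches at positions -89 to -72 from the Hspe1 start, and lies in the window of Hspd1 as well, since the 2 windows share 285 bases. The Hsph1 match lies at 15 to 27 past a start and the Dnajb6 match at -46 to -34. The windows of Hspa1a and Hspa1b, which were alike at 296 of 300 bases, held no such run of 3 units; shorter or imperfect elements were not searched. Dnajb6 held the element but ranged only from 58.1 to 73.5 over the 8 mice. Unlike Hspd1 and Hspe1, it was not highest in control mice 11560 and 11563. A match is a description of the letters, no binding was measured, and whether the element bears on these values was not tested.

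Cytosolic chaperones varied widely among mice of the same genotype. Of the 34 tested cytosolic genes, 24 lay below 0 and 10 above, with a median log2 fold change of -0.15. At an unadjusted p under 0.05 in edgeR, 3 of 34 (Hspb8, Hspa8 and Dnajc21) were lower, where 4.96% of all genes were. The Hsp90 pair and the Hsp70 group kept medians below that of all genes in every scaling tried, whereas the absolute median of the Hsp70 group was 0.13 and 0.16 in TPM. No member passed the adjusted test.

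Hspa1b and Hspa1a, the stress-inducible Hsp70 genes, showed this spread most. Hspa1b was at 7.17, 14.7, 136 and 180 in controls and 17.1, 40.3, 152 and 65.9 in Ox1RΔSERT mice, a 25.1-fold range among the controls alone. Hspa1a was at 5.34, 11.6, 65.3 and 106 in controls and 13.6, 27.3, 103 and 45.8 in Ox1RΔSERT mice. For both genes control mice 11560 and 11563 and Ox1RΔSERT mouse 11613 were the highest 3, and control mouse 10684 the lowest. The genotypes overlapped fully: the log2 fold change was -0.30 (SE 0.99) for Hspa1b and 0.00 (SE 0.91) for Hspa1a, with adjusted p = 0.902 and 0.999 in edgeR. Since 67.6% of the 31-base words of Hspa1b also occur in Hspa1a, the division of reads between the 2 genes is uncertain.

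The same 3 mice led for the machinery around Hsp70 and Hsp90. Hsph1 (Hsp110), a nucleotide exchange factor for Hsp70, was at 102, 207, 468 and 478 in controls and 165, 143, 319.7 and 219 in Ox1RΔSERT mice. Hsp90aa1, the inducible cytosolic Hsp90, was at 402, 712, 1583 and 1591 against 617, 529.5, 772 and 633. Controls 11560 and 11563 were far above every other mouse for Hsp90aa1, and the other 2 controls lay within or below the Ox1RΔSERT range, so that the log2 fold change of -0.75 had an SE of 0.40 (adjusted p = 0.384, edgeR). Its constitutive paralog Hsp90ab1 was less spread, at 983, 1242, 1893 and 1825 against 1206, 954, 1499 and 1212 (log2 fold change -0.29, SE 0.23, adjusted p = 0.557). In TPM the ratio of Hsp90aa1 to Hsp90ab1 was 0.463, 0.610, 0.935 and 0.933 in the controls and 0.557, 0.586, 0.608 and 0.562 in the Ox1RΔSERT mice. The 2 isoforms thus approached equal TPM levels in controls 11560 and 11563 only.

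Hspb1 (Hsp25), the most abundant small heat shock protein, was at 114, 149, 375 and 377 in controls and 145, 114, 284 and 176 in Ox1RΔSERT mice. Dnaja1, a cytosolic J protein that works with Hspa8, was at 216, 375, 572 and 629 and 286, 243, 391 and 298. Dnajb1 (Hsp40), the inducible partner of Hspa1a and Hspa1b, was at 32.6, 52.3, 66.6 and 94.1 and 45.6, 58.9, 94.6 and 47.7. For Hspb1, 52.3% of the 31-base words also occur in a pseudogene, and for Hsp90aa1 51.4% occur in other genes. All 3 resembled Hspa1b in that mice 11560, 11563 and 11613 were the highest 3, and in all 3 genes the genotypes overlapped, with log2 fold changes of -0.50 (SE 0.44), -0.56 (SE 0.31) and 0.01 (SE 0.34) and adjusted p = 0.583, 0.400 and 0.996 in edgeR.

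The pattern of mice 11560, 11563 and 11613 as the highest 3, noticed after looking at the values, held for 13 of 63 members (20.6%) against 5.22% of all genes. Of the 13, 11 were cytosolic: Hspa1a, Hspa1b, Hspa4l, Hsph1, Hsp90aa1, Hsp90ab1, Dnaja1, Dnaja4, Dnajb1, Dnajb2 and Hspb1. The remaining 2 were Dnajb12 and Dnajc5, and 0 of 8 mitochondrial members had it. Control mice 11560 and 11563 alone, as the highest 2, were shared more widely: by 19 of 63 members (30.2%) against 10.3% of all genes, among them 4 of 8 mitochondrial members (Hspa9, Hspd1, Hspe1 and Dnajc11), 11 of 34 cytosolic members and 3 of 13 ER members. Control mouse 10684 was the lowest of the 8 for 20 members (31.7%) against 18.4% of all genes, with 0 mitochondrial, 11 cytosolic and 5 ER members. The pattern of 3 mice was also found in 9 of 23 cytosolic co-chaperones, including Bag3, Stip1, Ahsa1 and Chordc1, and in 5 of 8 subunits of the TRiC chaperonin, which folds actin and tubulin. None of the 3 heat shock factors had it. Hsf1 ranged from 14.7 to 17.8 over the 8 mice and Hsf4 from 1.33 to 2.77, whereas Hsf2 was lowest in control mouse 10684 (5.39) and highest in control mice 11560 and 11563 (8.56 and 7.90), with the other 5 mice between 7.22 and 7.84. Mice 11560, 11563 and 11613 are of both genotypes and none was among the 2 with the high macrophage or fibroblast sums; whether they shared handling or clamp conditions cannot be told from the labels.

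Spread within the controls can be put beside that of all genes. Of the 59 members with a control mean of at least 1, 14 (23.7%) ranged over 2-fold among the 4 controls, against 12.3% of 12012 genes. In Ox1RΔSERT mice it was 11 of 59 (18.6%) against 17.2% of genes, near the background. After Hspa1b and Hspa1a the broadest control ranges were those of Hspb7 (13.2-fold), Hspb6 (4.86-fold), Hsph1 (4.67-fold) and Hsp90aa1 (3.96-fold).

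**Figure D4:**
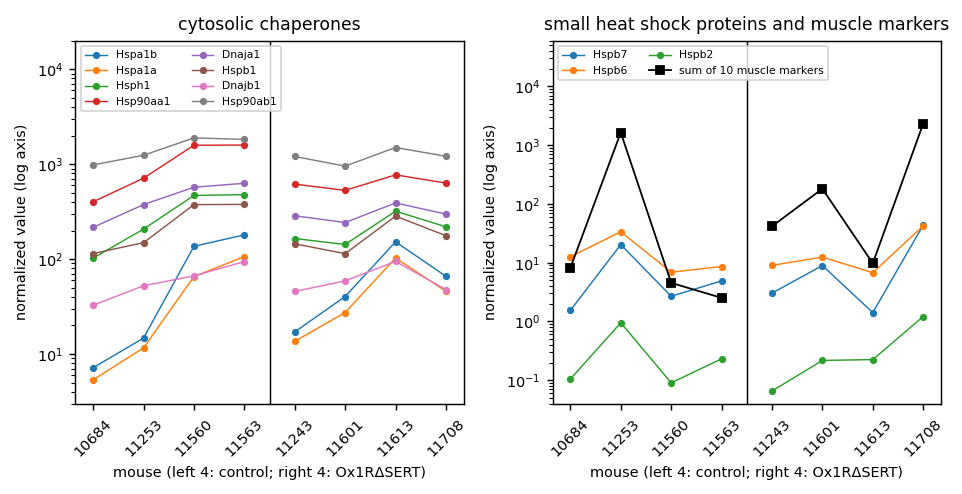
Normalized values (log axis) by mouse, with lines only to guide the eye within each genotype: 8 cytosolic chaperones (left), and 3 small heat shock proteins with the sum of 10 skeletal muscle markers (right). The 8 cytosolic genes shown are among the 11 of 34 tested cytosolic members whose highest 3 mice are 11560, 11563 and 11613. Hspb2, Hspb6 and Hspb7 are highest in mice 11253 and 11708, where the muscle sum is 1642 and 2329.

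The 3 cytosolic genes at an unadjusted p under 0.05 were each lower in mice 11601 and 11708 than in any control. Hspb8, which works with Bag3 in removing misfolded proteins, was at 155, 164, 231 and 232 in controls and 129, 110.4, 162 and 131 in Ox1RΔSERT mice. Only mouse 11613 reached the control range, and the log2 fold change was -0.56 (SE 0.17, adjusted p = 0.316, edgeR). Hspa8 was at 1975, 2768, 3799 and 3743 in controls and 2107, 1949, 2575 and 1861 in Ox1RΔSERT mice. Control mouse 10684 fell among the Ox1RΔSERT mice, and the log2 fold change was -0.53 (SE 0.23, adjusted p = 0.325). For Hspa8, 43.6% of the 31-base words occurred in other genes, mainly pseudogenes. Dnajc21, a J protein of ribosome assembly, was at 27.5, 33.0, 31.9 and 34.2 against 28.8, 26.0, 27.9 and 24.6, with control 10684 within the Ox1RΔSERT range (log2 fold change -0.24, SE 0.10, adjusted p = 0.317).

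Of the 23 tested cytosolic co-chaperones, 19 lay below 0, with a median of -0.16. Only Cdc37l1, a relative of the kinase co-chaperone Cdc37, was lower at an unadjusted p under 0.05, where 4.96% of all genes were. It was also the only 1 of the 23 lower without overlap, against 2.81% of all genes. Its value was 35.9, 44.5, 44.2 and 44.0 in controls and 35.0, 25.7, 33.6 and 32.9 in Ox1RΔSERT mice, without overlap (log2 fold change -0.41, SE 0.12, adjusted p = 0.316, edgeR). The 8 TRiC subunits had a median of -0.12 and the 3 heat shock factors one of 0.01, with 0 at an unadjusted p under 0.05 in either list.

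A different arrangement of mice was seen in small heat shock proteins typical of muscle. Hspb7 (cvHsp), known from heart and skeletal muscle, was at 1.54, 20.4, 2.69 and 4.90 in controls and 3.04, 8.95, 1.41 and 43.7 in Ox1RΔSERT mice. Hspb6 (Hsp20), also a muscle protein, was at 12.6, 33.6, 6.91 and 8.60 and 8.996, 12.5, 6.76 and 42.4. Both were highest in Ox1RΔSERT mouse 11708 and control mouse 11253, 1 mouse of each genotype, as were Hspb2 and the related crystallin gene Cryab (8.92, 32.1, 10.8 and 12.2 against 11.1, 15.7, 10.2 and 62.3), both of which were named after their values were seen. The summed skeletal muscle markers were 8.16, 1642, 4.54 and 2.52 in the controls and 41.7, 181, 9.77 and 2329 in the Ox1RΔSERT mice, with 9 of 9 tested markers highest in the same 2 mice, against 3.32% of all genes. The part of muscle RNA in these values was not tested. The log2 fold changes of 0.96 (SE 1.11) and 0.20 (SE 0.68) did not pass the test (adjusted p = 0.684 and 0.904, edgeR), and without mouse 11708 they were -0.71 and -0.71. Hspb2 shares 252 exonic bases with Cryab on the opposite strand.

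ER chaperones did not share the lower values of the mitochondrial group. Of 13 tested members, 7 lay above 0 and 6 below, with a median log2 fold change of 0.07. At an unadjusted p under 0.05, 0 were higher and 1 (Dnajb14) lower, against 10.2% and 4.96% of all genes. Relative to all genes the median was 0.06 to 0.07 with library size scaling and in TPM. Without mouse 11601 it was -0.02, and without mice 11601 and 11708 it was -0.10, with 11 of 13 below 0.

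Hspa5 (BiP), the ER Hsp70 and main target of the unfolded protein response, was at 243, 284, 323 and 314 in controls and 254, 411, 281 and 366 in Ox1RΔSERT mice. Hsp90b1 (Grp94), the ER Hsp90, was at 178, 229, 254 and 247 and 199.6, 327, 227 and 297. In both genes mice 11601 and 11708 lay above every control while 11243 and 11613 lay inside the control range, so the genotypes overlapped, with log2 fold changes of 0.17 (SE 0.17) and 0.21 (SE 0.18) and adjusted p = 0.632 and 0.576 in edgeR. Among the J proteins that serve Hspa5, Dnajb11 and Dnajc3 were also highest in mice 11601 and 11708, whereas Dnajb9 was highest in control mice. Dnajc1 was highest in control mouse 11560, followed by mice 11601 and 11708. Dnajb11 (ERdj3) was at 22.8, 29.5, 28.2 and 28.4 and 25.2, 36.4, 25.4 and 32.6, and Dnajc3 (p58IPK) at 68.7, 71.0, 76.5 and 75.1 and 71.6, 93.4, 64.1 and 79.3, with adjusted p = 0.659 and 0.750. Dnajb9 (ERdj4) had a different order, at 31.8, 63.9, 56.6 and 62.8 and 40.9, 44.7, 59.9 and 43.6, with control mouse 10684 lowest (log2 fold change -0.19, SE 0.22, adjusted p = 0.694). In TPM, Hspa5 stood at 0.106 ± 0.0214 of Hspa8 in controls and 0.171 ± 0.0555 in Ox1RΔSERT mice (SD, n = 4), and the ranges overlapped.

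Mice 11601 and 11708 were the highest 2 for 6 of 13 ER members (Hspa5, Hsp90b1, Dnajb11, Dnajc3, Dnajc10 and Dnajc18), against 20.1% of all genes, and for 10 of 15 genes of the ER folding partner list. That list, of disulfide isomerases, lectin chaperones and regulators of the unfolded protein response, had a median of 0.22, with 13 of 15 above 0. At an unadjusted p under 0.05, 6 were higher (Sdf2l1, Creld2, Pdia4, Pdia6, P4hb and Xbp1) and 1 lower (Atf6), and 0 passed the adjusted test. Of all genes, 10.2% were higher and 4.96% lower. The 6 higher became 1 without mouse 11253, 11560 or 11601, 2 without mouse 11563 and 3 without mouse 10684. They became 7 without mouse 11243 and 2 with limma voom. In these fits 4.84 to 13.9% of all genes were higher. Counts for this list without mouse 11613, without mouse 11708, and without both 11601 and 11708 are not given here. Pdia4, a disulfide isomerase, was at 26.2, 19.7, 20.6 and 20.3 in controls and 21.5, 61.8, 24.3 and 54.0 in Ox1RΔSERT mice. P4hb, another, was at 57.7, 73.5, 60.3 and 62.8 and 68.4, 162, 77.7 and 136, and Xbp1, a transcription factor of the unfolded protein response, at 55.1, 44.9, 42.4 and 40.6 and 46.6, 80.5, 52.4 and 76.0. In all 3 genes the Ox1RΔSERT group split into 11601 and 11708, above every control, and 11243 and 11613, within or near the control range. The log2 fold changes were 0.90 (SE 0.34), 0.81 (SE 0.27) and 0.48 (SE 0.19), with adjusted p = 0.316, 0.316 and 0.316 in edgeR. Macrophage and fibroblast markers were high in the same 2 mice, with fibroblast sums of 5378 and 2501 against 361 to 988 in the other 6, and the part of these cells in the ER values was not tested.

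Dnajb14, a J protein of the ER membrane, was the exception, at 32.3, 32.7, 41.3 and 36.1 in controls and 32.6, 30.6, 27.7 and 27.4 in Ox1RΔSERT mice. Mouse 11243 lay just inside the control range and the other 3 below it (log2 fold change -0.27, SE 0.11, adjusted p = 0.316, edgeR).

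The ER stress element, to which Atf6 with NF-Y binds, was searched as CCAAT and CCACG 9 bases apart on both strands. It was present in 0.119% of the 32841 RefSeq windows and in 3 of 74 windows of members. These belong to Hspa5, Hsp90b1 and Dnajc3. All are among the 6 ER members highest in mice 11601 and 11708, a pattern present in 20.1% of all genes. Whether the element bears on that pattern was not tested. Of the partner lists, Calr, Canx, Creld2 and Pdia6 held it. The sites of the 3 members are shown as above.
Hspa5, chr2:34772020-34772048, plus strand: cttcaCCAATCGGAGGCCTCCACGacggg
Hsp90b1, chr10:86705633-86705661, minus strand: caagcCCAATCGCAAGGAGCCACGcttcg
Hsp90b1, chr10:86705528-86705556, minus strand: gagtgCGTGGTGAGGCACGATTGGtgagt
Dnajc3, chr14:118937822-118937850, plus strand: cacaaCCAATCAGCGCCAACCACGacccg
The second Hsp90b1 site is in the reverse orientation, and the 4 sites lie between positions -212 and -47 from the starts. Canx held the element but was not among the genes highest in the 2 mice, and no binding was measured.

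Outside these compartments, the 2 tested vesicle J proteins, Dnajc5 (cysteine string protein) and Dnajc13, had log2 fold changes of 0.04 and -0.12. Of 6 tested genes with other or unassigned locations, 5 lay below 0. Dnajc25 was at 23.4, 23.4, 22.6 and 20.3 in controls and 20.4, 19.3, 17.6 and 17.4 in Ox1RΔSERT mice, with 11243 just inside the control range (log2 fold change -0.26, SE 0.09, adjusted p = 0.316, edgeR). Dnajb13, a J protein of cilia and sperm flagella, was the 1 member higher without overlap, at 0.314, 0.317, 0.316 and 0.336 against 0.371, 0.454, 0.382 and 0.638 (log2 fold change 0.52, SE 0.26, adjusted p = 0.366). It was near the limit of detection, since 3 counts correspond to 0.0592 to 0.0951 on this scale, and its exons share 305 bases with Ucp2 on the opposite strand, so reads of the 2 genes may not be separable.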

How the data were processed

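BAT RNA of 8 mice (4 control, 4 Ox1RΔSERT) was sequenced from poly-A selected stranded libraries. The authors ran the nf-core/rnaseq 1.4 pipeline with Salmon 0.14.1 as the quantifier against GRCm38.p6, and the submitters' processing notes also name STAR and DESeq2 1.26.0. The annotation release, trimming and strand setting were not given in the sources used here. The deposited estimated counts per gene were rounded to whole numbers; the deposited TPM values served to compare levels between genes. Salmon divides reads shared by near-identical genes by estimation, which limits Hspa1a, Hspa1b, Hspd1 and Hspa8.

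Identifiers were matched to GENCODE M21 symbols (98.8% of 44674). Genes passing filterByExpr were TMM-scaled and compared by edgeR 4.0.16's quasi-likelihood test, without covariates, two-sided, with Benjamini-Hochberg adjustment over 14489 genes and a threshold of 0.05. Alternatives were DESeq2 1.42.0, other scalings and filters, limma 3.58.1 (voom on counts, limma-trend on TPM after log2 with a pseudocount of 1 or 0.1) and leaving out mice. The fits were run on simulated counts as a check of the procedure only. Those counts had larger changes than the members and less spread than these data. Power and error rates in these data were not tested. Libraries of 35852667 to 50063257 counts put 3 counts at 0.0592 to 0.0951 on the TMM-scaled CPM scale; such limits cover counting error only. Each sample is a separate mouse.

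Members, compartments and gene lists were chosen with earlier results of these data known. Values by mouse are given for every member at an unadjusted p under 0.05 or without overlap between groups, and for well-known members of each compartment; other members are given by count and range.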

Additional observations from a re-analysis of the deposited data

Results flagged for a closer look

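Among 26 named members in 2 groups, 2 of 52 groups of 4 mice held a mouse far from the other 3, by a gap of 0.840 and 0.856 of the group's range, above Dixon's critical value; chance gives about 1 in 20. Ox1RΔSERT mouse 11708 had a normalized Hspb6 value of 42.4, where the nearest mouse of its group had 12.5, and it had the highest skeletal muscle marker sum, 2329. Control mouse 11563 had a Dnajb13 value of 0.336, where the nearest control had 0.317, a small gap on a low-count gene.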

How the results depend on the processing

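No paired analysis was possible because the labels give no replicate numbers that link mice of the 2 groups. With edgeR and limma 0 genes passed the adjusted test in any alternative, whereas DESeq2 called 265 genes and 0 members. The 10 members lower at an unadjusted p under 0.05 became 0 with library size scaling, 0 on log2(TPM + 1), 0 on log2(TPM + 0.1), 0 without mice 11601 and 11708, 2 without mice 11253 and 11708 (an alternative chosen after seeing the data) and 2 to 18 with 1 mouse left out. Of all genes, 0.607%, 0.242%, 0.228%, 1.20%, 1.88% and 2.02 to 8.50% were lower in these settings, against 4.96% in the fit as reported. The 0 members higher became 3, 2 and 3 with library size scaling, log2(TPM + 1) and log2(TPM + 0.1), where 20.8%, 20.7% and 21.9% of all genes were higher, and 0 to 1 with 1 mouse left out, where 4.84 to 13.9% were. The members' median log2 fold change of -0.15 was 0.069, 0.17 and 0.21 under the same 3 settings, where the median of all genes was 0.22, 0.23 and 0.32, and stayed below 0 in the other 18 alternatives.

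Of 26 named members, 10 kept the sign of their log2 fold change in all 21 alternatives, and no sign change had an adjusted p under 0.05. With library size scaling Dnajb9 was at 0.042. On log2(TPM + 1) and log2(TPM + 0.1) the values were 0.072 and 0.080 for Dnajc25, 0.020 and 0.020 for Dnaja3, 0.062 and 0.077 for Dnajb14, 0.094 and 0.10 for Dnajc21, 0.54 and 0.64 for Hspa1b, 0.046 and 0.050 for Hsph1, 0.10 and 0.10 for Hsp90ab1, and 0.19 and 0.20 for Dnajb9. With upper quartile scaling Hspa1a and Dnajb1 were at -0.0094 and -0.0092, without a filter at -0.017 and -0.014, and with limma voom Hspa1b was at 0.35. Leaving out 1 mouse gave -0.71 to 0.77 for Hspa1a, -0.28 to 0.28 for Dnajb1, -1.05 to 0.37 for Hspa1b, -0.71 to 0.89 for Hspb6, -0.71 to 2.20 for Hspb7 and -0.023 to 0.16 for Dnajc3. Without mice 11601 and 11708, Hspb6 was at -0.95, Hspb7 at -1.70, Hspa5 at -0.12, Hsp90b1 at -0.085, Dnajb11 at -0.10 and Dnajc3 at -0.10. Without mice 11253 and 11708 Hspa1a was at -0.30. The cause of these changes was not tested.

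Depth limits Dnajb13, with values of 0.314 to 0.638 where 3 counts are worth 0.0592 to 0.0951.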
